A study of Sus scrofa with 24 samples.

Results

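The acute-phase proteins of the pig liver were followed through 10 listed genes: the positive acute-phase proteins HP, ITIH4, CRP, LBP, ORM1 and HPX, the signalling genes SOCS3, STAT3 and IL6R, and ALB, whose level is known to fall in inflammation. Members were the rows of the deposited count and log2(TPM + 1) tables that carried a listed symbol. Rows were found for 4 of the 10 genes, CRP, HPX, IL6R and ALB, among 13463 genes in all, and the other 6 were not analysed here. The 4 rows all passed the filter on low counts, which left 8279 genes for testing. CRP was the row ENSSSCG00000006403, HPX was ENSSSCG00000014626, IL6R was ENSSSCG00000027628 and ALB was ENSSSCG00000008948.

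Liver RNA of 24 hybrid fattening pigs (Large White, Landrace and Duroc) was sequenced, 1 library per pig, to find transcripts that mark the illicit use of steroid esters. The groups were 8 pigs injected intramuscularly with Sustanon, a mixture of testosterone esters, at 4 mg/kg, 8 pigs injected with Myodin, the nandrolone ester laurate, at 5 mg/kg, and 8 untreated controls. Each treatment held castrated boars, sows and uncastrated boars: 3, 3 and 2 with Sustanon, 2, 3 and 3 with Myodin, and 3, 3 and 2 among the controls. The injections, in arachis oil with benzyl alcohol, were repeated before slaughter, and no vehicle injection of the controls is described. Each group had its own pen, and the controls were kept in a separate room. The steroid, the injection with its vehicle and the housing thus cannot be told apart. Castrated boars and sows are put together below as pigs without testes (6 with Sustanon, 5 with Myodin and 6 controls), and p-values measure the spread between pigs of these pens. Because the tissue is whole liver, fewer hepatocytes and less RNA per hepatocyte cannot be told apart.

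Totals ran from 9267780 to 14017276 counts per library, with a median of 10260005. Counts of the Y-linked gene EIF1AY went against the labelled sex in 3 control libraries, with 476 and 434 counts in the libraries labelled control sow 16 and control sow 18 and 1 count in that labelled control castrated boar 15. Differences of the members, of the called list genes and of the called cell markers are given again without these libraries where the value changed sign, lost its call or moved by over 1.5 times. Of 10 hepatocyte markers 4 were tested, none of them at 0 in any treatment group. They include TTR, which is also listed below among the negative acute-phase proteins. Their summed level was 11126 to 17205 CPM with Sustanon, 10310 to 13092 with Myodin and 10754 to 15091 in controls. CPM are counts scaled to a common library size after TMM normalization.

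The acute-phase response is the change in liver secretion that follows infection, injury or inflammation. Interleukin-6 binds its receptor, encoded by IL6R, on hepatocytes, and the signal passes through Janus kinases to the factor STAT3, which raises the transcription of acute-phase genes. In the pig the plasma proteins that rise most are haptoglobin, pig-MAP (the product of ITIH4), C-reactive protein (CRP) and serum amyloid A, while albumin and transthyretin fall. C-reactive protein is a pentraxin that binds phosphocholine on bacteria and damaged cells and activates complement. Hemopexin, the product of HPX, binds free heme and carries it to the liver. Albumin is the main protein of plasma.

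Levels between genes were compared in TPM, which is scaled for length. ALB had the highest median of all 13463 genes, 114916 TPM, with a range over pigs of 44883 to 157093. HPX ranked 11th with a median of 9605 TPM and a range of 7350 to 11135. CRP ranked 121st with a median of 966 TPM and a range of 281 to 3491. IL6R, the receptor, had a median of 30.5 TPM with a range of 18.7 to 46.3. The genes of secreted plasma proteins thus stood well above the gene of the receptor in every pig.

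The members differed in how much they varied between pigs. CRP differed 12.5-fold between the highest and the lowest pig in CPM, ALB 3.09-fold, IL6R 2.52-fold and HPX 1.83-fold. The SD of log2 CPM over the 24 pigs was 0.893 for CRP, 0.412 for ALB, 0.286 for IL6R and 0.194 for HPX, against a median of 0.311 over the 8279 tested genes. CRP was thus among the more variable genes, since 4.25% of tested genes had a larger SD, and HPX among the less variable, since 83.9% had a larger one. Within the 6 groups of treatment by testes the SD of CRP was still 0.748 and that of HPX 0.174. Counting error was small beside these spreads: the lowest count of a member in any library was 689, for IL6R, which gives an error of 3.81%.

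**Figure D1:**
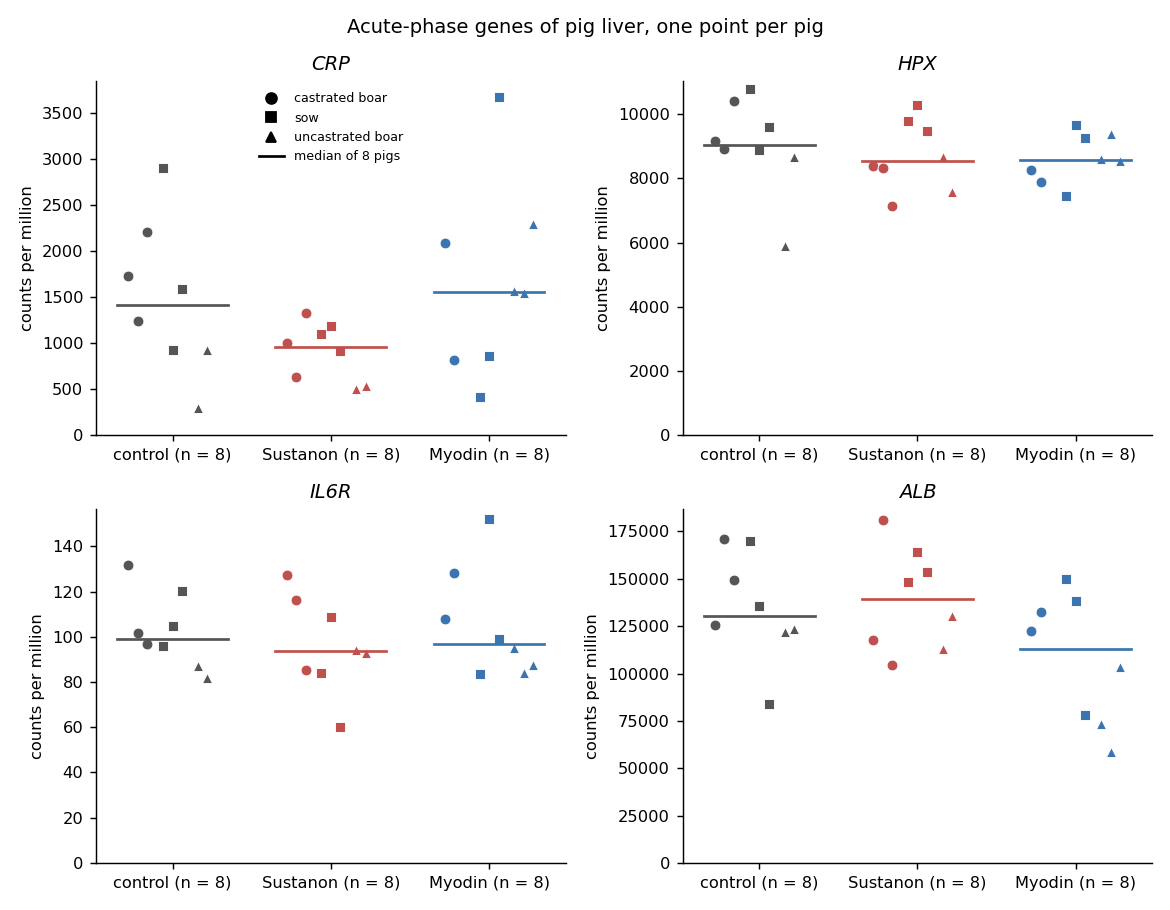
Level of CRP, HPX, IL6R and ALB in each of the 24 pigs, in CPM (y axes start at 0), by treatment, circles are castrated boars, squares sows, triangles uncastrated boars, and lines the median of 8 pigs. CRP spreads from 295 to 3681 CPM while HPX stays between 5878 and 10783 CPM.

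CRP with Sustanon had a lower median than in the 8 controls, but the difference did not pass the test, and the order of the medians turned without the 3 doubted control libraries. Among the control pigs CRP stood at 1727, 1242 and 2208 CPM in the castrated boars 13, 14 and 15, at 2904, 925 and 1593 CPM in the sows 16, 17 and 18, and at 295 and 926 CPM in the uncastrated boars 25 and 27. With Sustanon it stood at 1001, 634 and 1333 CPM in the castrated boars, at 1102, 1182 and 911 CPM in the sows and at 503 and 532 CPM in the uncastrated boars. All 8 Sustanon-treated pigs lay below the control median of 1417 CPM, but none lay below the lowest control, so the groups overlapped. The 5 controls without the doubted libraries had a median of 926 CPM, and 4 of the 8 Sustanon-treated pigs lay above it. Sustanon-treated pigs averaged 900 ± 312 CPM (SD, n = 8), while the mean of the controls was 1478 ± 820 CPM (SD, n = 8). Sustanon-treated pigs were also closer to each other, with a coefficient of variation of 34.7% against 55.5% in controls, a difference that was not tested. The ends of the control range were uncastrated boar 25 at 295 CPM and sow 16, a doubted library, at 2904 CPM.

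The log2 fold change of CRP with Sustanon was -0.72 (SE 0.38, 95% interval -1.50 to 0.07), with an adjusted p of 0.312 in edgeR's quasi-likelihood test. Without the 3 control libraries whose EIF1AY counts went against their label it was -0.19, with an adjusted p of 0.885, and 2 of those 3 libraries, control sow 16 and control castrated boar 15, held the highest CRP levels among controls. Leaving out a single library gave values between -0.88 (without control uncastrated boar 25) and -0.50 (without control sow 16). Among pigs without testes the log2 fold change was -0.78 (SE 0.39), with an adjusted p of 0.281, and -0.34 without the same 3 libraries.

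With Myodin, CRP spread over most of its range. It stood at 2089 and 823 CPM in the castrated boars 8 and 9, at 3681, 417 and 862 CPM in the sows 10, 11 and 12, and at 2291, 1566 and 1546 CPM in the uncastrated boars 22, 23 and 24. Sow 10 was the highest and sow 11 the second lowest of all 24 pigs, although both had the same treatment and sex. The mean was 1659 ± 1040 CPM (SD, n = 8). The log2 fold change against control was 0.17 (SE 0.38, 95% interval -0.62 to 0.95), with an adjusted p of 0.984, and it was 0.70 without the 3 doubted control libraries (adjusted p = 0.9998). Sustanon against Myodin gave -0.88 (SE 0.38), with an unadjusted p of 0.0298 and an adjusted p of 0.219, and -0.61 without Myodin sow 10.

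In uncastrated boars CRP with Myodin lay apart from the controls, and CRP with Sustanon did not. The 3 Myodin-treated boars (1546 to 2291 CPM) were all above both control boars (295 and 926 CPM), and the groups did not overlap. With so few boars such a separation is common, since 9.76% of all tested genes lay higher in all 3 Myodin-treated boars than in both controls. The Sustanon-treated boars, at 503 and 532 CPM, lay between the control boars. Without testes, 3 of the 5 Myodin-treated pigs lay below all 6 controls and 1 above all of them. The Myodin effect on CRP in uncastrated boars exceeded that without testes by 1.73 on the log2 scale (SE 0.76, 95% interval 0.15 to 3.31), with an unadjusted p of 0.0337 and an adjusted p of 0.371. That difference rests on 2 control boars: it was 1.13 without boar 25 and 2.77 without boar 27, and 1.28 without the 3 doubted control libraries.

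Over the 3 treatments CRP was lower in uncastrated boars than in pigs without testes by a log2 fold change of -0.78 (SE 0.32), with an unadjusted p of 0.0244 and an adjusted p of 0.172. With Myodin alone the median of CRP was higher in uncastrated boars, at 1566 CPM against 862 CPM without testes. The means were closer, at 1801 ± 424 CPM (SD, n = 3) and 1574 ± 1334 CPM (SD, n = 5). The 2 sets of pigs overlapped, and this difference was not tested. The order of the median levels in the 9 groups of treatment and sex ran from control castrated boars (1727 CPM) through control sows (1593), Myodin uncastrated boars (1566), Myodin castrated boars (1456), Sustanon sows (1102), Sustanon castrated boars (1001) and Myodin sows (862) to control uncastrated boars (611) and Sustanon uncastrated boars (517). Each group overlapped the next in this order. Without the 3 doubted libraries the median was 1484 CPM in the 2 remaining control castrated boars, and the 1 remaining control sow stood at 925 CPM, which moves control sows below Sustanon castrated boars in the order.

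HPX was held within a narrow range, and no treatment moved it beyond the spread between pigs. Among controls it stood at 9146, 8914 and 10410 CPM in castrated boars, at 10783, 8873 and 9602 CPM in sows and at 5878 and 8661 CPM in uncastrated boars. With Sustanon it stood at 8385, 8315 and 7122 CPM in castrated boars, at 9777, 10282 and 9471 CPM in sows and at 8675 and 7580 CPM in uncastrated boars. With Myodin it stood at 8260 and 7898 CPM in castrated boars, at 9266, 7434 and 9659 CPM in sows and at 8550, 8614 and 9380 CPM in uncastrated boars. The 3 Sustanon sows were above all 5 Sustanon males, whereas in the other treatments the sexes overlapped, and this ordering was noticed after the values were seen and was not tested. Of all tested genes 1.97% lay higher in the 3 Sustanon sows than in the 5 males.

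The log2 fold change of HPX was -0.05 with Sustanon (SE 0.11, 95% interval -0.29 to 0.18, adjusted p = 0.851, edgeR) and -0.07 with Myodin (SE 0.11, 95% interval -0.30 to 0.17, adjusted p = 0.965). These intervals leave room for a change to between 0.818-fold and 1.13-fold of control with Sustanon. Both values were above 0 without the 3 doubted control libraries, at 0.065 and 0.057. Leaving out 1 library gave -0.13 (without control uncastrated boar 25) to -0.014 (without control sow 16) with Sustanon, and -0.13 to -0.025 with Myodin. The lowest level of all, 5878 CPM, was that of control uncastrated boar 25, which was also the pig with the lowest CRP.

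IL6R, the receptor through which interleukin-6 acts, did not pass the test in any comparison. Control pigs ranged from 81.9 to 132 CPM with a median of 99.2, Sustanon-treated pigs from 60.3 to 127 with a median of 93.5, and Myodin-treated pigs from 83.4 to 152 with a median of 96.9. The log2 fold change was -0.09 with Sustanon (SE 0.14, adjusted p = 0.790, edgeR) and 0.03 with Myodin (SE 0.14, adjusted p = 0.996). With 1 library left out the Sustanon value ran from -0.17 (without Sustanon castrated boar 1) to -0.017 (without Sustanon sow 6). The 7 uncastrated boars lay close together, between 81.9 and 94.97 CPM, while the 17 pigs without testes spread from 60.3 to 152 CPM. In uncastrated boars both Sustanon-treated pigs, at 94.2 and 92.9 CPM, lay above both controls, at 87.1 and 81.9 CPM, as did 25.1% of all tested genes. Uncastrated boars against pigs without testes gave -0.26 (SE 0.12), with an unadjusted p of 0.0465 and an adjusted p of 0.237.

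ALB, the gene of the negative acute-phase protein albumin, did not change with Sustanon beyond the spread and had its lowest levels in Myodin-treated uncastrated boars. The control pigs ranged from 84105 to 171045 CPM with a median of 130441, the Sustanon-treated pigs from 104483 to 180872 with a median of 139216, and the Myodin-treated pigs from 58492 to 149861 with a median of 112967. In uncastrated boars, ALB stood at 122055 and 123393 CPM in controls, at 113189 and 130221 CPM with Sustanon, and at 103288, 73462 and 58492 CPM with Myodin. All 3 Myodin-treated boars thus lay below both control boars. These boars also lay above both controls in CRP, but boar 22, the highest of them in CRP, was also the highest in ALB. Of all tested genes 10.4% lay lower in the 3 Myodin-treated boars without overlap. The low levels outside this group were 77846 CPM in Myodin sow 10, the pig with the highest CRP, and 84105 CPM in control sow 18. Control sow 16, a doubted library with CRP at 2904 CPM, stood at 169856 CPM in ALB. Over the 24 pigs Pearson's r of CRP and ALB was -0.31 (adjusted permutation p = 0.439). By treatment it was 0.25 in controls, -0.03 with Sustanon and -0.61 with Myodin.

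The log2 fold change of ALB was 0.04 with Sustanon (SE 0.20, 95% interval -0.36 to 0.45, adjusted p = 0.942, edgeR) and -0.34 with Myodin (SE 0.20, 95% interval -0.74 to 0.07, adjusted p = 0.744). Sustanon against Myodin gave 0.38 (SE 0.20, adjusted p = 0.316). Uncastrated boars against pigs without testes gave -0.37 (SE 0.17), with an unadjusted p of 0.0451 and an adjusted p of 0.235. The Myodin effect in uncastrated boars minus that without testes was -0.48 (SE 0.40, adjusted p = 0.660). That difference was -0.72 without Myodin uncastrated boar 22 and -0.31 without Myodin uncastrated boar 24.

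**Figure D2:**
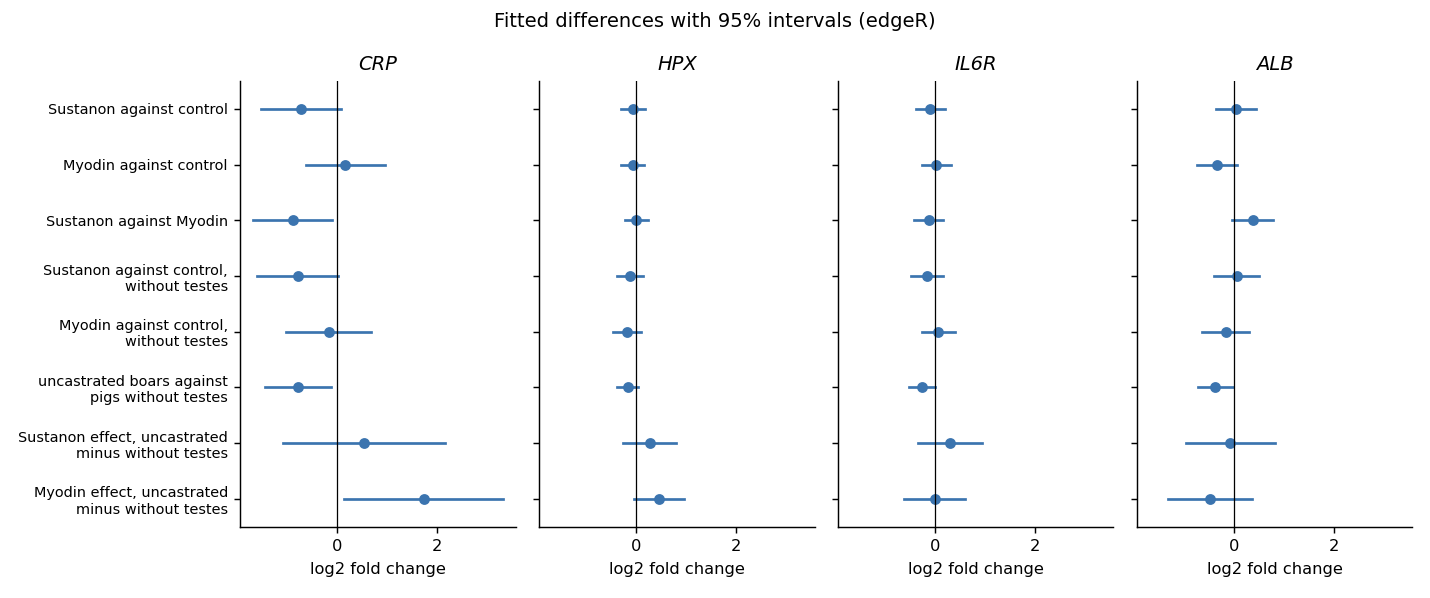
Log2 fold changes of CRP, HPX, IL6R and ALB in the 8 comparisons (points) with their 95% intervals (lines) from the edgeR fits. The intervals of CRP are the widest, and for Sustanon against control it lies at -0.72 with an interval from -1.50 to 0.07.

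Counted over the 8 comparisons, 0 of the 4 members had an adjusted p under 0.05, by edgeR's quasi-likelihood test or by DESeq2. The share of all 8279 tested genes called at that threshold was 5.07% for Sustanon against control, 0% for Myodin against control, 0.664% for Sustanon against Myodin, 5.54% for Sustanon against control without testes, 0.0966% for Myodin against control without testes and 4.61% for uncastrated boars against pigs without testes. For the difference between the effect in uncastrated boars and that without testes it was 0.0362% for Sustanon and 0.109% for Myodin. At an unadjusted p under 0.05 there were 0 members in each treatment comparison with controls, 1 in Sustanon against Myodin (CRP), 3 in uncastrated boars against pigs without testes (CRP, IL6R and ALB, all lower), 0 for the difference of the Sustanon effects and 1 for that of the Myodin effects (CRP). Of all tested genes 18.1%, 20.3% and 11.9% were at that level in the comparisons with 1, 3 and 1 members. These shares rest on few pigs. For Sustanon against control edgeR called 420 genes over all 24 pigs, 0 without the 3 doubted libraries and between 198 (without Sustanon uncastrated boar 19) and 613 (without Sustanon castrated boar 1) with 1 library left out. For Sustanon against Myodin 55 calls became 0 without Sustanon pigs 2, 5, 6 or 20 or Myodin sow 10, and up to 541 without Myodin uncastrated boar 23. For uncastrated boars against pigs without testes 382 became 140 (without Sustanon uncastrated boar 19) to 697 (without Myodin uncastrated boar 22), and for the difference of the Myodin effects 9 became 2 (without Myodin uncastrated boar 24) to 202 (without Myodin uncastrated boar 22). The 3 calls for the difference of the Sustanon effects became 0 (without Sustanon uncastrated boar 19 or 20) to 5 (without Sustanon sow 5 or control sow 16). Without testes the 459 calls with Sustanon became 288 (without Sustanon sow 5) to 550 and, without the 3 doubted libraries, 126, and the 8 calls with Myodin became 3 (without control castrated boar 13) to 16 (without Myodin sow 12), and 0 without the 3 doubted libraries. DESeq2 called 69 genes in that Myodin comparison. In Myodin against control the count of 0 stood beside 597 genes at an unadjusted p under 0.05 and 1 gene called by DESeq2.

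CRP and HPX, both genes of positive acute-phase proteins, tended to be high in the same pigs. Over the 24 pigs, Pearson's r of log2 CPM was 0.63 (permutation p = 0.00101, adjusted over the 6 pairs of members, 0.00606), and Spearman's rho was 0.47 (permutation p = 0.0213, adjusted 0.128). Without the 3 doubted control libraries r was 0.53 and no longer passed (adjusted permutation p = 0.0746). Without the 2 pigs farthest from the median of CRP, r was 0.51 (adjusted permutation p = 0.0934). Leaving out extreme pigs narrows the range of CRP, so this fall does not show that the relation rests on them. Within the 6 groups of treatment by testes, r was 0.50 (permutation p = 0.0606, adjusted 0.363). By treatment, r was 0.97 in the 8 controls, 0.93 in controls without boar 25, 0.52 with Myodin and 0.22 with Sustanon. Whether r differs between the treatments was not tested. The other 5 pairs had r between -0.31 (CRP and ALB, adjusted permutation p = 0.439, and -0.46 with 0.102 without the 3 doubted libraries) and 0.14 (HPX and IL6R).

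The genes whose level over the 24 pigs was most like that of the positive members were HPS5, SLC25A25, SERPING1, ENSSSCG00000004170 and NOPCHAP1, among 8275 genes ranked by Spearman's rho with the mean z-score of CRP and HPX. The rho was 0.76 for HPS5, 0.73 for SLC25A25 (a calcium-regulated mitochondrial ATP carrier), 0.71 for SERPING1 (the C1 inhibitor of complement), 0.71 for ENSSSCG00000004170 and 0.68 for NOPCHAP1. These are descriptions over the pigs that also define the score. The HPS5 row ran from 105 CPM in control uncastrated boar 25 to 11432 CPM in Myodin sow 10, the same pigs that hold the lowest and the highest CRP, with a median of 427 CPM. HPS5 is known as a subunit of a lysosome biogenesis complex. In RefSeq (Sscrofa11.1) it lies on chromosome 2 at 40906785 to 40938847. The nearest gene listed is GTF2H1, which ends at 40900591, with LDHA beyond it. On the other side come the serum amyloid A pseudogene SAA1P (from 40961342), the genes SAA2 (from 40972797) and SAA4 (from 40986869), the unnamed LOC102165880 and SAA3 (from 41021349). Whether reads of these neighbours were counted in the HPS5 row was not tested.

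**Figure D3:**
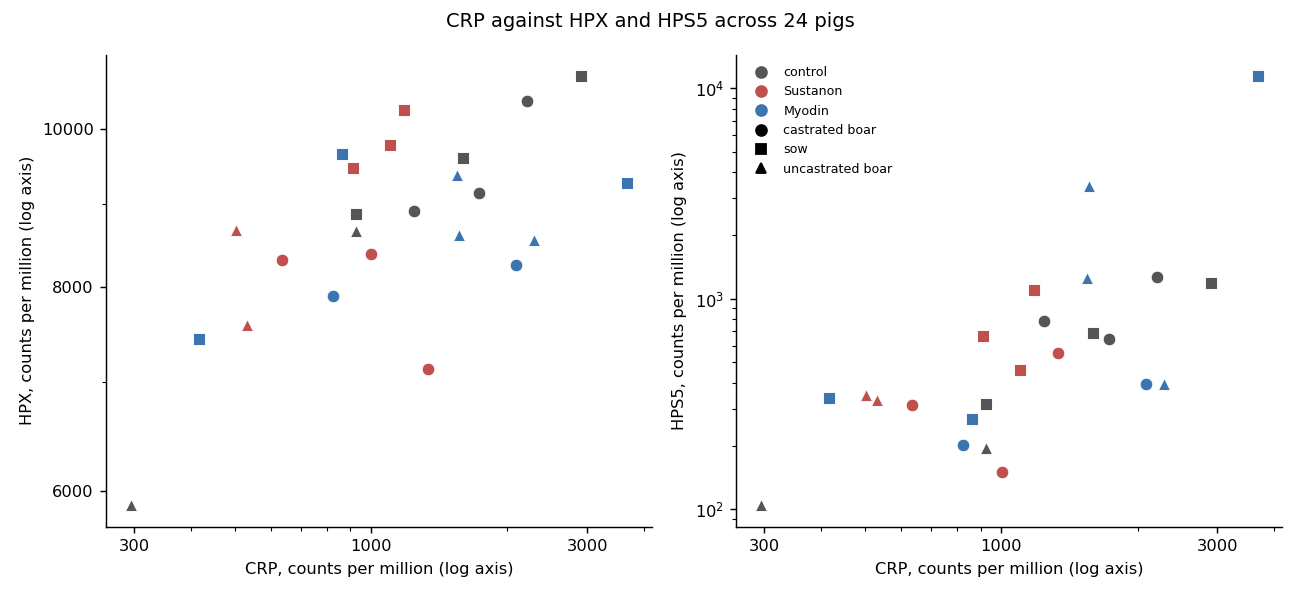
CRP against HPX (left) and against the HPS5 row (right) in 24 pigs, all axes in CPM on log scales, colour gives the treatment and shape the sex. Pigs with high CRP tend to be high in both, and Myodin sow 10 stands at the top right for HPS5 with 11432 CPM.

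Of 32 other positive acute-phase proteins 15 rows were tested, and edgeR called 0 in any of the 8 comparisons, with between 0 and 3 at an unadjusted p under 0.05. Of all tested genes 6.96% to 20.3% were at that level, depending on the comparison. Over all genes DESeq2 called 282 in Sustanon against Myodin. Among them were 2 of this list, both of them SERPINA1 rows (alpha-1 antitrypsin, an inhibitor of neutrophil elastase), and it called 0 of the list in the other 7 comparisons. Those rows, ENSSSCG00000002476 and ENSSSCG00000038515, stood at 0.40 and 0.45 in edgeR (adjusted p = 0.101 and 0.0527), and how reads shared by them were counted is not given in the sources used here. With Sustanon 8 of the 15 had a log2 fold change above 0, with a median of 0.15 against -0.01 over all tested genes. The fibrinogen chains FGB and FGG stood at 0.44 and 0.40, SERPINA3-2 at 0.44, LCN2 (lipocalin 2, an iron-binding protein of inflamed tissue) at 0.69, C3 at -0.11 and HAMP (hepcidin, the hormone of iron control) at -0.32, none past the test. With Myodin FGB and FGG stood at 0.50 and 0.39, and FGB had an unadjusted p of 0.0305 and an adjusted p of 0.627. LCN2 is a low row, from 0.77 to 9.76 CPM.

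Of 12 other negative acute-phase proteins 7 were tested, and again edgeR called 0 in any comparison, with between 1 and 4 at an unadjusted p under 0.05. Across the comparisons 6.96% to 20.3% of all tested genes were at that level. DESeq2 called TTR in Sustanon against Myodin, among 282 genes in all. It also called IGFALS in Sustanon against control without testes, where edgeR gave IGFALS 0.80 (adjusted p = 0.0647). In that comparison without testes DESeq2 called more genes in all than the 459 called by edgeR. IGFALS, the carrier subunit of circulating insulin-like growth factor, stood at 75.9 ± 19.8 CPM (SD, n = 8) with Sustanon, and controls had 49.0 ± 19.8 CPM (SD, n = 8). Its difference was 0.63 on the log2 scale (SE 0.24, adjusted p = 0.133, edgeR). TTR, transthyretin, stood at 0.25 with Sustanon and -0.25 with Myodin, and Sustanon against Myodin gave 0.50 (adjusted p = 0.0907). SERPINA6, the corticosteroid-binding globulin, stood at -0.02 with Sustanon and -0.59 with Myodin (unadjusted p = 0.00677, adjusted p = 0.493). SERPINA7, the thyroxine-binding globulin, stood at 0.31 with Sustanon (adjusted p = 0.321).

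**Figure D4:**
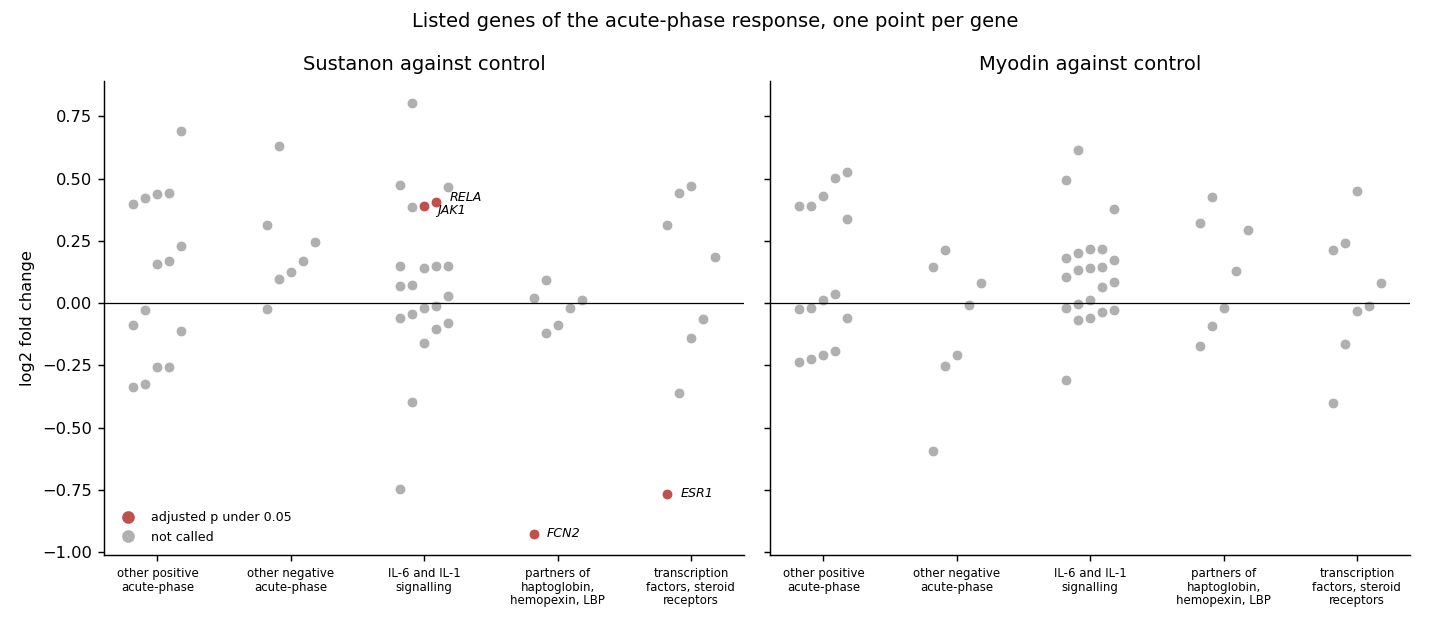
Log2 fold changes of the tested genes of 5 lists (1 point per gene) with Sustanon (left) and Myodin (right) against control, red points have an adjusted p under 0.05. Both acute-phase lists hold 0 red points, and the red points with Sustanon are RELA, JAK1, FCN2 and ESR1.

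Across pigs, CRP was also set beside the 22 tested genes of these lists, a family of correlations added after the member values were seen. The closest was C4BPA, the alpha chain of the C4b-binding protein that restrains complement, with r = 0.73 (adjusted permutation p = 0.00088) and rho = 0.64 (adjusted permutation p = 0.0233) over 24 pigs, and r = 0.61 without the 2 pigs farthest from the median of CRP (adjusted permutation p = 0.0563). Within the 6 groups its r was 0.55 (adjusted permutation p = 0.0744) and its rho 0.36 (adjusted permutation p = 0.344). SERPINA6 ran the other way, with r = -0.57 over 24 pigs (adjusted permutation p = 0.0363), -0.53 within the groups (adjusted permutation p = 0.0744) and -0.46 without the 2 farthest pigs (adjusted permutation p = 0.214). By rho over 24 pigs SERPINA6 did not pass (-0.55, adjusted permutation p = 0.0515). Within the groups 3 genes passed: SERPINA3-2 with r = 0.69, LCN2 with 0.68 and TTR with -0.57 (adjusted permutation p = 0.0454 for each). By Spearman's rho within the groups none of the 3 passed, at 0.53 for SERPINA3-2 (adjusted permutation p = 0.276), 0.59 for LCN2 (0.162) and -0.65 for TTR (0.0645). LCN2 had an r of 0.03 over the 24 pigs, and by treatment its r was -0.37 in controls, 0.08 with Sustanon and 0.53 with Myodin.

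**Figure D5:**
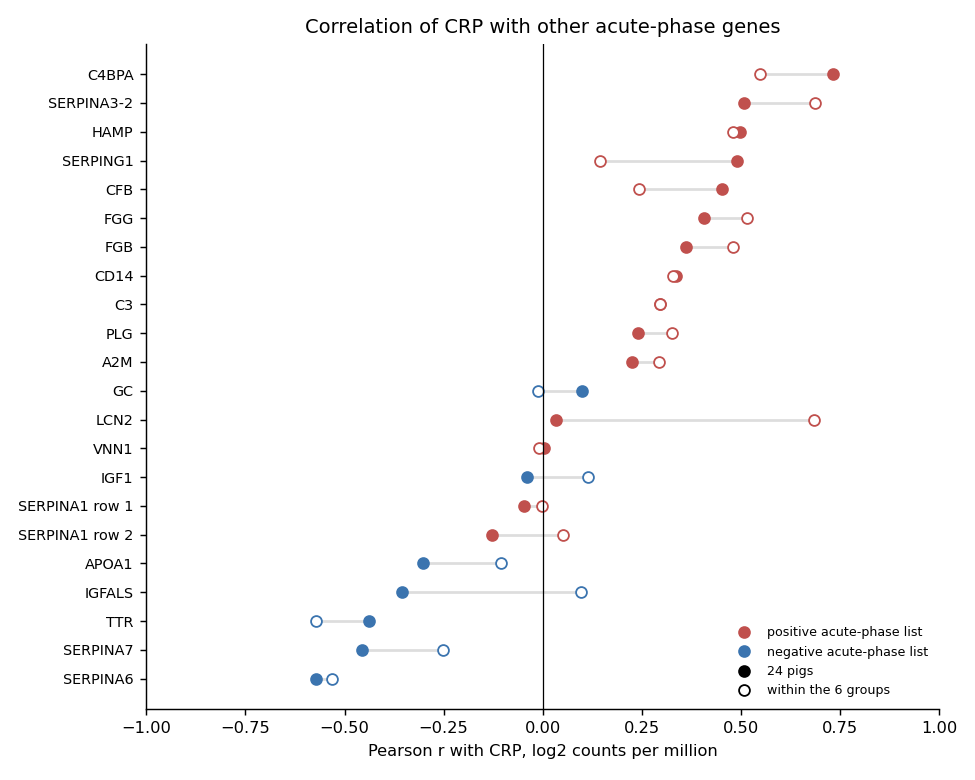
Pearson's r of CRP with 22 other acute-phase genes (log2 CPM), over 24 pigs (filled) and within the 6 groups of treatment by testes (open), red for the positive and blue for the negative list. C4BPA is highest at 0.73 and SERPINA6 lowest at -0.57 over the 24 pigs.

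Of 39 genes of interleukin-6 and interleukin-1 signalling 22 were tested, and with Sustanon 2 were called higher and 0 lower, against the 5.07% of all genes. RELA, a subunit of NF-kappaB, averaged 198 ± 25.3 CPM (SD, n = 8) with Sustanon, while the control mean was 149 ± 19.4 CPM (SD, n = 8). In 7 of the 8 Sustanon-treated pigs it was above all controls, and the log2 fold change was 0.40 (SE 0.09, adjusted p = 0.0132, edgeR). JAK1, a kinase of the interleukin-6 receptor complex, averaged 257 ± 37.0 CPM (SD, n = 8) with Sustanon, while controls averaged 196 ± 28.6 CPM (SD, n = 8), with 6 of 8 pigs above all controls and a log2 fold change of 0.39 (SE 0.11, adjusted p = 0.0368). Without the 3 doubted control libraries both lost the call, at 0.35 (adjusted p = 0.137) and 0.34 (adjusted p = 0.180). JAK1 also lost it when any 1 of 10 pigs was left out.

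Without testes RELA was higher with Sustanon by 0.50 (SE 0.09, adjusted p = 0.00291, edgeR) and kept the call without the 3 libraries (adjusted p = 0.0474). Of the feedback and target genes, SOCS1, a suppressor of cytokine signalling, stood at -0.75 (adjusted p = 0.0633) with Sustanon in edgeR. PIM1, a kinase induced by STAT factors, stood at 0.80 (adjusted p = 0.0813). DESeq2 called both (adjusted p = 0.0327 and 0.0417), among 635 genes in all for Sustanon against control. With Myodin 0 of the 22 were called by edgeR or by DESeq2, and 2 had an unadjusted p under 0.05, as did 7.21% of all tested genes. In uncastrated boars against pigs without testes 1 of the 22 was called, against 4.61% of all tested genes. It was TNFRSF1B, a receptor of tumour necrosis factor, higher by 0.47 (SE 0.08, adjusted p = 0.00186, edgeR). TNFRSF1B was picked after its values were seen.

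With Sustanon 1 of the 7 tested partners of haptoglobin, hemopexin and LBP was called, against 5.07% of all tested genes. It was FCN2 (ficolin-2, a lectin that starts complement), which was lower. Its mean was 108 ± 27.8 CPM (SD, n = 8), while in controls it was 204 ± 90.4 CPM (SD, n = 8), with 4 of 8 Sustanon-treated pigs below all controls and a log2 fold change of -0.93 (SE 0.25, adjusted p = 0.0283, edgeR). The call was lost without the 3 doubted control libraries, where the value was -1.05 (adjusted p = 0.117), and when any 1 of 7 pigs was left out. FTL, the light chain of ferritin, stood at -0.12. AMBP, the 1 tested gene of the inter-alpha-trypsin inhibitor family to which ITIH4 belongs, stood at -0.12 with Sustanon and -0.13 with Myodin, not called.

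With Sustanon 1 of 8 tested transcription factors and steroid receptors of hepatocytes was called, against 5.07% of all tested genes. It was ESR1, the oestrogen receptor alpha, which was lower. Its mean was 7.42 ± 1.10 CPM (SD, n = 8), while in controls it was 12.7 ± 4.90 CPM (SD, n = 8). On the log2 scale the difference was -0.77 (SE 0.20, adjusted p = 0.0265, edgeR), and at -0.93 (SE 0.20, adjusted p = 0.00546) without testes. Without the 3 doubted control libraries the values were -0.84 (adjusted p = 0.117) and -1.19, the latter still called (adjusted p = 0.0124), and leaving out any 1 of 6 pigs ended the call over all pigs. ONECUT1, a factor of liver development, stood at 0.47 with Sustanon (adjusted p = 0.179).

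Markers of other liver cells were set beside these genes, and few single markers were called by edgeR. The summed level of the 6 tested markers of Kupffer cells and macrophages was 939 to 1255 CPM with Sustanon, 1194 to 2032 with Myodin and 917 to 1398 in controls. Of these 6, 0 were called against control with either steroid, while C1QA (adjusted p = 0.0321) and C1QC (adjusted p = 0.0399) were lower with Sustanon than with Myodin. In Sustanon against Myodin 0.664% of all tested genes were called. C1QA lost the call when any 1 of 8 pigs was left out (adjusted p up to 0.0951) and C1QC for any 1 of 11 (up to 0.0971), and without the 3 doubted libraries C1QA kept it (adjusted p = 0.0444) and C1QC did not (0.0585). At an unadjusted p under 0.05 there were 0 with Sustanon and 4 with Myodin against control, where 19.6% and 7.21% of all tested genes were at that level. With Myodin 6 of the 6 were above 0 (median 0.40), and in Sustanon against Myodin 0 of the 6 were (median -0.47). The 10 tested leukocyte markers summed to 144 to 213 CPM with Sustanon, 171 to 255 with Myodin and 159 to 204 in controls. In Sustanon against Myodin 0 of the 10 were above 0, with a median of -0.43. NKG7, a gene of cytotoxic lymphocytes, was lower with Sustanon than with Myodin (-0.82, adjusted p = 0.0399), but the call ended when any 1 of 10 pigs was left out (adjusted p up to 0.0999) and without the 3 doubted libraries (0.0585). MS4A1, a gene of B cells, was lower with Sustanon than in controls without testes (-1.15, adjusted p = 0.0222), where 5.54% of all tested genes were called. It stood at -1.40 without the 3 doubted libraries (adjusted p = 0.0270) and lost the call without control sow 17 (adjusted p = 0.0695).

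Of the 4 tested hepatocyte markers 1 was called with Sustanon, against 5.07% of all tested genes. The list's median log2 fold change was 0.23, with 3 of 4 above 0. In Sustanon against Myodin 4 of the 4 were above 0, with a median of 0.49 and 0 called. These 4 include TTR, which is also on the list of negative acute-phase proteins, so the marker list is not separate from the genes studied. The called gene was SLC10A1, the bile acid carrier, higher by 0.96 (SE 0.22, adjusted p = 0.0161), and at 0.86 (adjusted p = 0.151) without the 3 doubted libraries, where no gene was called in that comparison. Without testes SLC10A1 was higher by 1.14 (adjusted p = 0.00239) and kept its call without the 3 libraries (1.15, adjusted p = 0.0442). TAT, the tyrosine-degrading enzyme, stood at -0.29. The 5 tested stellate and stromal markers were all above 0 with Sustanon, with a median of 0.40 and 0 called or at an unadjusted p under 0.05. Their median was 0.77 in Sustanon against Myodin, with 0 called and 3 at an unadjusted p under 0.05, as were 18.1% of all tested genes. The 3 tested bile duct markers were below 0 with both steroids, with medians of -0.21 for Sustanon and -0.58 for Myodin and 0 called. With Myodin 1 of them had an unadjusted p under 0.05, as did 7.21% of all tested genes. The 4 tested red blood cell markers summed to 464 to 2288 CPM with Sustanon, 167 to 2330 with Myodin and 775 to 2427 in controls. Against control 0 of the 4 were above 0 with either steroid (medians -0.42 with Sustanon and -0.65 with Myodin). Of 5 tested endothelial markers 1 was above 0 with Sustanon (median -0.07) and 4 with Myodin (median 0.11). In these 2 lists 0 were called, and 1 red blood cell marker with Myodin and 1 endothelial marker with Sustanon had an unadjusted p under 0.05. The single tested neutrophil marker, CSF3R, lay between 0.617 and 5.22 CPM in all pigs. The part of these cells in the levels of the members was not tested.

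In RefSeq (Sscrofa11.1), IL6R lies on chromosome 4 at 95322426 to 95381393, ALB on chromosome 8 at 69643427 to 69663152 and HPX on chromosome 9 at 3288288 to 3297051. The symbol CRP belongs to 2 neighbouring RefSeq genes on chromosome 4, at 90782741 to 90785051 and 90793361 to 90801020. The deposited tables have 1 row of that symbol, and how reads shared by the pair were counted is not given in the sources used here, so the level of CRP is uncertain to that extent. Positions were matched by symbol.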

How the data were processed

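The authors made stranded, poly-A selected libraries and sequenced paired ends. Adapters were removed by Skewer, and STAR 2.5, run through docker4seq, aligned the reads to Sscrofa11.1, per the study's methods and the submitters' processing notes. The counting tool is not given in the sources used here. The authors deposited unnormalized counts per gene and a table of log2(TPM + 1), from which TPM were computed by subtracting the pseudocount of 1. Of 13463 rows 3779 have no symbol, and 359 of these were named from a reference table.

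Counts were filtered with filterByExpr by treatment, normalized by TMM and tested, two-sided, with the quasi-likelihood test of edgeR 4.0.16 (R 4.3.3), in 1 fit of the 3 treatments and 1 of the 6 groups of treatment by testes. A call is a Benjamini-Hochberg adjusted p under 0.05 over all 8279 tested genes. The study's further threshold of 1 on the size of the log2 fold change was an alternative. Log2 CPM had a prior count of 2. Permutation tests of correlations used 100000 resamples. Alternatives were DESeq2 1.42.0, limma 3.58.1 on the deposited log2 values, other normalizations, filters, groups and covariates, and leaving out libraries. The fits were tested on simulated data.

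Named genes were the members, listed genes called in a treatment comparison, the 2 with the largest change per list, and the 5 genes most like the positive members; others named were picked after their values were seen. The members and lists were chosen with earlier results of these data known. No sequence of the members was used here.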

Additional observations from a re-analysis of the deposited data

Results flagged for a closer look

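HPX in control uncastrated boar 25 stood apart from the other controls. Its level of 5878 CPM was the lowest of the 8 controls, and its gap to the next control took 0.639 of the range of log2 CPM in that group. This was 1 of 24 combinations of member and group that were checked, and chance alone is expected to mark about 1 in 20 such groups. The same pig had the lowest CRP of all 24 pigs, 295 CPM.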

How the results depend on the processing

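The number of members called stayed at 0 in each of the 8 comparisons under every alternative run. These were DESeq2, RLE size factors, no count filter, the added fold change threshold, limma on log2(TPM + 1), other groupings or covariates, 23 pigs (no control castrated boar 15), 21 pigs (no control pigs 15, 16 and 18, chosen for their EIF1AY counts) and each library left out in turn. With few pigs per group, and only 2 control uncastrated boars, this does not show that the members did not change. Counts over all genes moved more, since for Sustanon against control 420 calls became 0 with 21 pigs, 272 with 23 pigs and 635 with DESeq2.

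The sign of some member values turned, mostly near 0. With 21 pigs, HPX became 0.065 with Sustanon and 0.057 with Myodin, CRP became 0.28 for Myodin without testes, and IL6R became 0.057 for the difference of the Myodin effects. That last value was 0.012 with DESeq2, 0.011 with RLE, 0.016 with no filter and 0.031 with 23 pigs. HPX in Sustanon against Myodin was -0.014 with no filter, -0.0035 with sex as a covariate and -0.0057 with only the 2 groups. IL6R with Myodin was -0.029 by limma. Leaving out 1 library gave ALB with Sustanon -0.043 to 0.10, without testes -0.063 to 0.12, and for the difference of the Sustanon effects -0.17 to 0.046. It gave CRP with Myodin -0.11 to 0.38, without testes -0.75 to 0.077, and for the difference of the Sustanon effects -0.054 to 1.59. It gave HPX in Sustanon against Myodin -0.027 to 0.037. It gave IL6R with Myodin -0.059 to 0.089, without testes -0.046 to 0.17, and for the difference of the Myodin effects -0.094 to 0.13. Within the 6 groups r was -0.094 for CRP and IL6R, -0.024 for HPX and IL6R and -0.074 for IL6R and ALB, and it was -0.011 for HPX and IL6R without the 2 farthest pigs. The causes were not tested.

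JAK1 also lost its call with no filter (adjusted p = 0.060), with 23 pigs (0.0683) and by limma (0.0606), and FCN2 with 23 pigs (0.0522) and by limma (0.0637). Left out in turn, pigs 2, 5, 6, 19, 20, 14, 15, 17, 18 and 27 ended the call of JAK1 (adjusted p up to 0.0954), pigs 2, 4, 5, 19, 15, 25 and 27 that of FCN2 (up to 0.0647) and pigs 5, 19, 20, 13, 14 and 17 that of ESR1 (up to 0.0671), while none ended that of RELA (up to 0.0328). No paired analysis was possible because each animal has a number of its own, shared by no other group.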
